A study of Mus musculus with 5 samples.

Results

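The Zic genes encode zinc-finger transcription factors related to the Gli factors of the hedgehog pathway. They act in the dorsal neural tube and forebrain midline, in neural crest and in the meninges, and Zic1 with Zic4 and Zic2 with Zic5 lie as neighbouring pairs in the mouse genome. In humans, loss of ZIC2 causes holoprosencephaly, a failure of the forebrain to divide, and deletions that include ZIC1 and ZIC4 have been linked to Dandy-Walker malformation of the cerebellum. Zic5 is needed in the mouse for neural tube closure and neural crest.

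The 4 members were Zic1, Zic2, Zic4 and Zic5, of 21883 protein-coding genes in the annotation. Peaks were taken by a positional rule, in which a summit lay inside a member or within 200 kb of it and no other protein-coding gene was nearer. Merging the peaks of all libraries gave 59 such regions, of 231612 in the genome. Accessible chromatin had been profiled in embryos of CD1 mice with ATAC-seq, which uses a transposase to cut and tag open DNA. Distal forelimb ectoderm of the E14.5 embryo had 2 libraries, distal hindlimb ectoderm of the E14.5 embryo had 2, and forebrain of the E13.5 embryo had 1. The ectoderm was freed with trypsin and the forebrain with collagenase. Tissue, stage and enzyme therefore cannot be told apart. No genetic change or treatment is named in the labels, and they do not say whether replicates or the forebrain came from pooled embryos.

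The lists held 51510 to 78147 distinct peak intervals in ectoderm and 120297 in forebrain, and read totals were not used here. Hindlimb replicate 1 had the shortest list. Markers were checked by peaks within 1 kb of a gene end. Of 10 basal epidermis genes, 6 to 10 had such a peak in ectoderm libraries and 6 in forebrain, and of 10 forebrain genes, 3 to 7 had one in ectoderm libraries and 10 in forebrain. The tissues thus overlapped in the count of epidermis genes and not in that of forebrain genes. Of 7 genes of meninges and head mesenchyme, where Zic1 is also known to be expressed, 4 to 7 had a gene-end peak in ectoderm libraries and 7 in forebrain. For 7 limb mesenchyme genes the counts were 1 to 5 in ectoderm libraries and 5 in forebrain. For 5 melanocyte and neural crest genes they were 2 and 4, and for 6 endothelium and blood genes 2 to 3 and 4. Over all protein-coding genes, 51.3% to 60.1% had a gene-end peak in ectoderm libraries and 64.7% in forebrain. The part of these cell types in the Zic peaks was not tested. With 1 forebrain library and 4 ectoderm libraries that divide evenly in only 3 ways, no comparison below carries a p-value.

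Forebrain had more peaks near the Zic genes than any ectoderm library, both as a number and as a share of its list. Summits assigned to the members numbered 12 and 16 in forelimb replicates 1 and 2, 6 and 15 in hindlimb replicates 1 and 2, against 60 in forebrain. These were 0.0145% and 0.0197% of the summits in the forelimb lists, 0.0108% and 0.0174% in the hindlimb lists, and 0.0397% in the forebrain list. An interval can hold several summits, and distinct intervals numbered 12 and 15 in forelimb, 6 and 15 in hindlimb, against 41 in forebrain. Every ectoderm library was below forebrain, and the forelimb and hindlimb values overlapped. A −log10 q of 5 or more was reached by 7 and 4 of these summits in forelimb and by 0 and 4 in hindlimb, against 43 in forebrain. In bulk tissue, strong accessibility in few cells and weak accessibility in many cannot be told apart. With every list reduced to its 55391 strongest summits, the counts were 8 and 4 in forelimb, 6 and 4 in hindlimb, against 22 in forebrain.

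**Figure D1:**
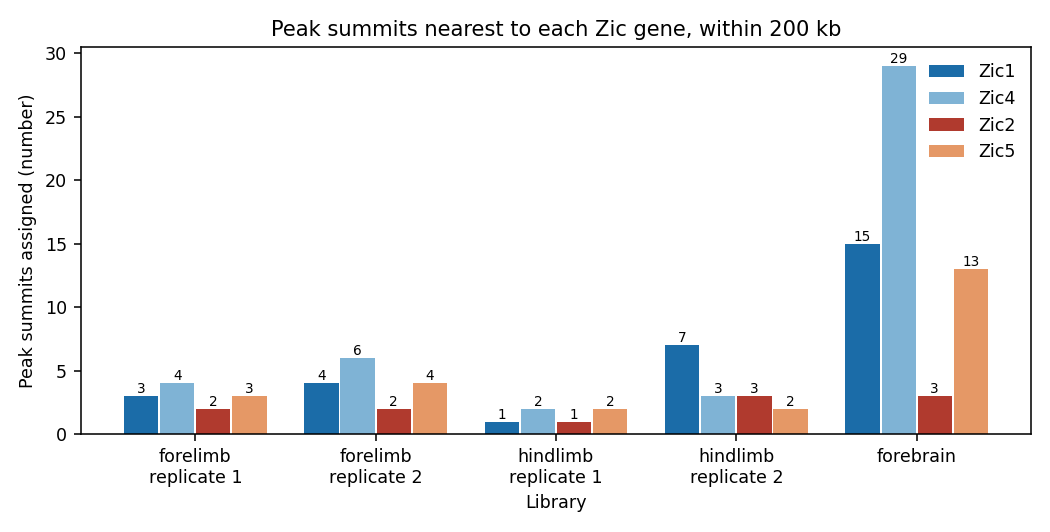
Number of peak summits (y axis) assigned to Zic1, Zic4, Zic2 and Zic5 in each library (x axis), with each bar 1 gene in 1 library. Zic4 has 29 summits in forebrain and at most 6 in any ectoderm library, and Zic2 has 1 to 3 in every library.

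The members differed in how far forebrain and ectoderm stood apart. Zic4 had 4 and 6 summits in forelimb, 2 and 3 in hindlimb, against 29 in forebrain. Zic1 had 3 and 4 in forelimb, 1 and 7 in hindlimb, against 15 in forebrain. Zic5 had 3 and 4 in forelimb, 2 and 2 in hindlimb, against 13 in forebrain. Those 13 summits fell in only 4 regions, since 1 long forebrain interval can hold several summits. Zic2 had 2 and 2 in forelimb, 1 and 3 in hindlimb, against 3 in forebrain. For Zic4, Zic1 and Zic5 every ectoderm library was below forebrain in summits, whereas the Zic2 count was the same in hindlimb replicate 2 and forebrain.

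The space open to each gene under the rule also differed. Zic1 and Zic4 lie on chromosome 9, at 91358058 to 91365768 and 91365631 to 91389351 (mm10), and their annotated bodies overlap by 138 bp. The nearest other protein-coding genes are Tbc1d2b, 1090 kb from Zic1, and Plscr5, 797 kb from Zic4, so the full 200 kb on each side was counted, 431 kb in all. Zic5 and Zic2 lie on chromosome 14, at 122459160 to 122465658 and 122475384 to 122480328, with 9.73 kb between them. Clybl and Pcca stand close on each side, 56.9 kb from Zic5 and 4.04 kb from Zic2, which left 51.6 kb. Regions with a forebrain peak were about as dense in both, at 0.835 per 10 kb around Zic1 and Zic4 and 0.968 per 10 kb around Zic2 and Zic5.

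Regions open in forebrain and in no ectoderm library made up most of the regions near the Zic genes. They numbered 34 of 59, or 57.6% (exact Clopper-Pearson 95% interval 44.1 to 70.4, for counting error only), and over regions of all protein-coding genes the share was 32.4%. A peak in all 4 ectoderm libraries and none in forebrain was found in 1 of the 59, against a background of 2.37%. A peak in all 5 libraries was found in 2, against 7.6%, and a peak in forebrain and in 1 to 3 ectoderm libraries in 5, against 12.6%. Peaks called in 1 ectoderm library and nowhere else gave 16 regions, or 27.1%, against 37.1%. A region without a peak fell short of the threshold of the deposited lists, which does not show that it was closed. With lists of equal length, 10 of 22 regions were forebrain-only, or 45.5%, against 15.0% over all genes. Without hindlimb replicate 1 the forebrain-only count was 34.

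By gene, 24 of 34 regions of Zic4 and 9 of 19 of Zic1 were forebrain-only. Zic5 had 1 of 4 and Zic2 had 0 of 2. Over the 19079 genes with any region, the median number of regions was 5 and that of forebrain-only regions 1. These medians were taken separately and give no share. The 2 loci thus differed in makeup, with 33 of 53 regions forebrain-only around Zic1 and Zic4 and 1 of 6 around Zic2 and Zic5. That difference was not tested, and 6 regions limit its precision.

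**Figure D2:**
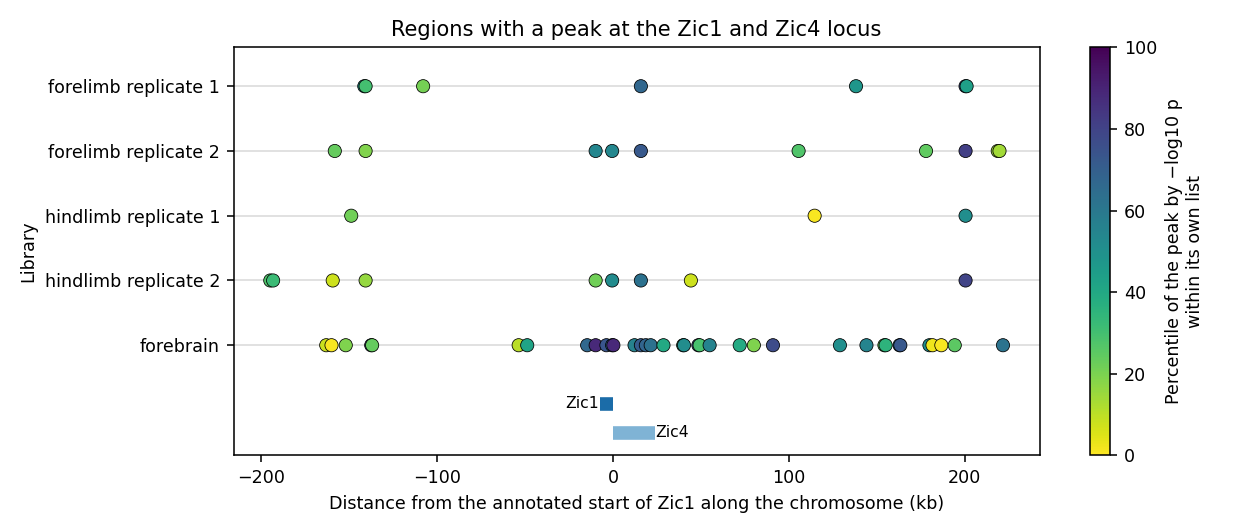
Regions with a peak around Zic1 and Zic4, placed at the strongest summit of the region by distance from the annotated start of Zic1 (x axis, kb) and by library (y axis), with colour for the percentile of the peak by −log10 p within its own list. Bars mark the gene bodies. Forebrain peaks lie on both sides of the genes, with none in the outer 44.5 kb on the Zic1 side and a gap of 82.7 kb nearer to Zic1. The region near 200 kb has a peak in all 4 ectoderm lists and none in the forebrain list.

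Around Zic1 and Zic4, forebrain peaks lay in the gene bodies and along the flank beyond Zic4. The bodies held 7 regions, all with a forebrain peak, and 5 of these had none in ectoderm. Beyond the Zic4 end there were 29 regions, 20 of them forebrain-only and 9 with ectoderm peaks only. None of the 29 had peaks in both tissues. Of these regions, 28 overlapped the long non-coding gene Gm29478, which starts beyond Zic4 and runs past the end of the window, and 19 of the 28 were forebrain-only. On the other side, beyond the Zic1 end, 8 of 17 regions were forebrain-only. At the 200 kb limit beyond Zic4, the last region inside lay at 198.1 kb and the first outside at 202 kb, with forebrain peaks at percentiles 61.9 and 22.7 and none in ectoderm. On the Zic1 side, the last region inside, at 187.2 kb, had a peak in hindlimb replicate 2 at percentile 27.7, and the first outside, at 222.7 kb, had percentiles of 1.31 in hindlimb replicate 2 and 19.5 in forebrain.

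The promoter windows of Zic1, Zic4 and Zic5 are shown because the peaks called over them differed. Each runs from 250 bases before to 50 after a start given in the RefSeq promoter table (GRCm38.p6, the assembly of mm10). For Zic1 and Zic5 that start is the end of the annotated gene body. For Zic4 it is 91368972, which lies 3341 bp inside the gene body that starts at 91365631 and was used for gene ends. Of the 4 members, 3 were matched. The Zic1 window is chr9:91365719-91366018 on the minus strand, the Zic4 window chr9:91368722-91369021 on the plus strand and the Zic5 window chr14:122465609-122465908 on the minus strand. Capitals mark matches to the CCAAT box (CCAAT), the GC box (GGGCGG) and the CACGTG box (CACGTG) on either strand, none of which overlapped another.
Zic1: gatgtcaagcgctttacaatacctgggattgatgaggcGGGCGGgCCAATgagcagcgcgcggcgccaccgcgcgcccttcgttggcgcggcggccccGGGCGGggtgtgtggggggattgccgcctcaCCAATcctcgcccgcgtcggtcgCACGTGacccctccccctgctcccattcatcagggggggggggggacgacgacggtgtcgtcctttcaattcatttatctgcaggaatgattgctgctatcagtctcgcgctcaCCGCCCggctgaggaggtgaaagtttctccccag
Zic4: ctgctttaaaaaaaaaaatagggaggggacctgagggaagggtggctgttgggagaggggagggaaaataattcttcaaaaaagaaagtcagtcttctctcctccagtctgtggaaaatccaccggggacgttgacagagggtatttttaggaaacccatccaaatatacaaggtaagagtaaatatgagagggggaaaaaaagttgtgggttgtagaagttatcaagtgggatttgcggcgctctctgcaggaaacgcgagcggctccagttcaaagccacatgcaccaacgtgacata
Zic5: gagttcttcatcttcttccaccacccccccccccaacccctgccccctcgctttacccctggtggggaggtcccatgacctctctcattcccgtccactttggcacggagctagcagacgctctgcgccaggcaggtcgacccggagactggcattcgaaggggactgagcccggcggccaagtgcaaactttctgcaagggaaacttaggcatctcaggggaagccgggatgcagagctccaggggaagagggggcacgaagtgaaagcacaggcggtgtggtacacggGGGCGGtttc

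The Zic1 window had a called peak in forebrain alone, which does not show that it was closed in ectoderm. A forebrain peak covered all 300 of its bases and no ectoderm peak touched it. The summit lay 149 bp before the Zic1 start, with a fold enrichment of 5.82 and a −log10 q of 63.6, at percentile 88.3 of the forebrain list by −log10 p. Because the annotated body of Zic4 reaches back over the Zic1 start, the rule assigned this region, chr9:91365692-91366105, to Zic4. The Zic4 window, built on a start 3204 bp beyond that of Zic1, overlapped no peak in any library. The other annotated start of Zic4, at 91365631, had summits 299 bp away in forelimb replicate 2, 282 bp away in hindlimb replicate 2 and 286 bp away in forebrain. The Zic5 window was overlapped by peaks in forelimb replicate 2 and hindlimb replicate 2, covering 214 and 118 of its bases, and by a forebrain peak covering 197.

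The windows differed in base composition. Of the bases in the Zic1 window 65.3% were G or C, with 31 CG pairs, against 46% and 8 in the Zic4 window and 62.7% and 15 in the Zic5 window. Over 32851 promoter windows the medians were 52.7% and 7. The Zic1 window held 2 CCAAT boxes, 3 GC boxes and 1 CACGTG box, and the Zic5 window 1 GC box. Of all windows, 37.4% held a CCAAT box, 35.7% a GC box and 7.15% a CACGTG box. The Zic core CAGCAGG, searched on both strands, was in none of the 3 and in 10.5% of all windows.

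Within 1 kb of a gene end, all 4 members had a forebrain peak, and ectoderm libraries varied from none to all. The counts were 1 and 3 of 4 in forelimb replicates 1 and 2 and 0 and 4 in hindlimb replicates 1 and 2. Over all protein-coding genes the shares were 60.1% and 57.6% in forelimb, 51.3% and 59.7% in hindlimb, against 64.7% in forebrain. Zic1 and Zic4 rested on the same peaks, since their ends there are close together. The ectoderm peaks at that end lay inside Zic1, 436 bp from its start in forelimb replicate 2 and 419 and 997 bp from it in hindlimb replicate 2. Their percentiles were 53.7 in forelimb replicate 2 and 7.31 and 52.0 in hindlimb replicate 2, and forelimb replicate 1 and hindlimb replicate 1 had none. No member (0 of 4) had a gene-end peak in forebrain without one in any ectoderm library, against 4.08% of all protein-coding genes.

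The strongest forebrain peaks near the members lay at Zic2 and Zic5. The region chr14:122473921-122475812 spanned the end of Zic2 that faces Zic5 and the non-coding gene 2610035F20Rik. Its peak reached percentile 52.0 and 28.6 in forelimb replicates 1 and 2, 9.46 and 54.9 in the hindlimb libraries, with 95.1 in forebrain, each in its own list. The forebrain list is the longest, and ranks in lists of different lengths show no change between tissues. The region had a peak in every library, with a fold of 8.07 in the forebrain list at a summit 1.12 kb outside Zic2. Within 1 kb of a Zic2 end, forelimb replicate 2 and hindlimb replicate 1 had no summit. The other region with a peak in every library was chr14:122463797-122465884, a merged region that includes the start of Zic5. Summits within 1 kb of a Zic5 end came from forelimb replicate 2, hindlimb replicate 2 and forebrain only. The percentiles of the region were 56.1 and 22.1 in forelimb, 29.0 and 19.3 in hindlimb, with 91.7 in forebrain, each in its own list. Neither region kept a peak in every library at a −log10 q of 5 or more or with lists of equal length (0 regions in both settings).

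These forebrain peaks were also long. The forebrain interval at Zic5 measured 1884 bp with 5 summits and that at Zic2 measured 1808 bp with 3, longer than 99.8% and 99.7% of forebrain intervals. Member intervals had a median length of 397 bp in forebrain, against 378 bp over the whole forebrain list. Of 41 forebrain intervals near the members 26.8% had more than 1 summit, against 20.1% in the whole list.

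**Figure D3:**
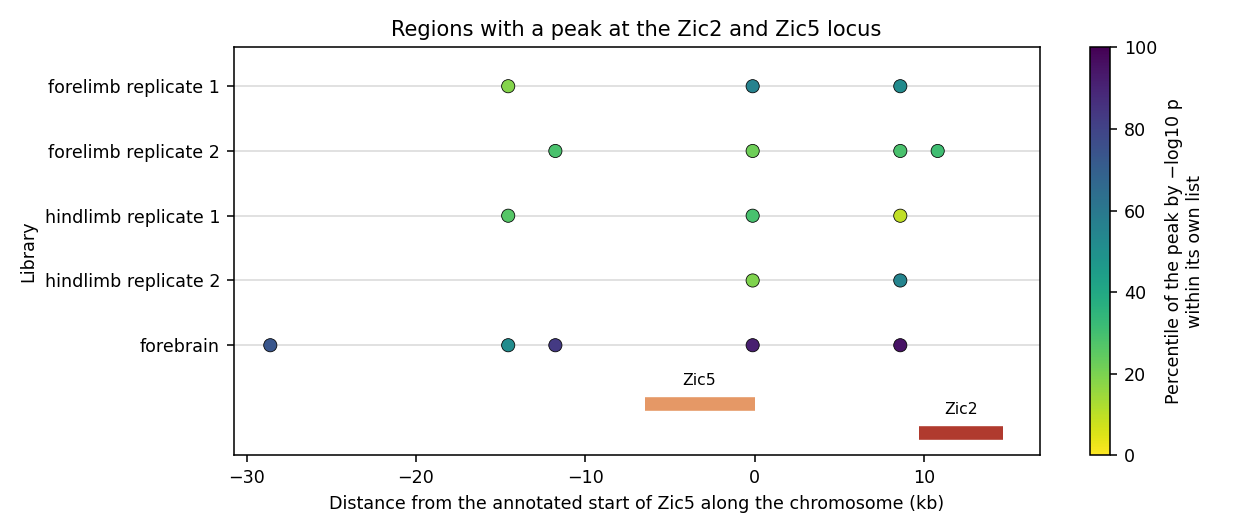
Regions with a peak around Zic5 and Zic2, placed at the strongest summit of the region by distance from the annotated start of Zic5 (x axis, kb) and by library (y axis), with colour for the percentile of the peak by −log10 p within its own list. Bars mark the gene bodies. The merged regions that include the Zic5 start and the facing end of Zic2 have a peak in every library. Not every library has a summit within 1 kb of those gene ends. The forebrain peaks of these regions stand at percentiles 91.7 and 95.1.

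Other regions of this locus were shared less evenly. At chr14:122449812-122451262, in the non-coding gene Gm5089, the percentiles were 18.5 in forelimb replicate 1, 26.4 in hindlimb replicate 1 and 51.6 in forebrain. At chr14:122453433-122454299 they were 28.9 in forelimb replicate 2 and 83.0 in forebrain. The forebrain-only region was chr14:122436863-122437287, also in Gm5089, 22.1 kb from Zic5, with a fold of 6.56 at percentile 73.2. A single region inside Zic2, chr14:122476366-122476565, had a peak in forelimb replicate 2 alone, at percentile 30.7.

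Around Zic1 and Zic4, the 5 forebrain-only regions highest in the forebrain list lay at the Zic1 start, inside Zic1 and up to 129.8 kb from either gene. After the region at the Zic1 start came chr9:91456279-91457125, 67.29 kb beyond Zic4 in Gm29478, with a fold of 7.62 at percentile 77.2. Next was chr9:91414068-91414584, 24.89 kb beyond Zic4, with a fold of 5.77 at percentile 75.0. On the other side, chr9:91227690-91228404 lay 129.8 kb from Zic1 outside any annotated gene, with a fold of 7.4 at percentile 74.5. The fifth, chr9:91361656-91362534, lay inside Zic1, with a fold of 3.76 at percentile 73.8. The region at the Zic1 start, at percentile 88.3, was the highest of the 5.

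Regions shared between the tissues around Zic1 and Zic4 numbered 3. The region chr9:91381285-91382083 inside Zic4 had percentiles of 67.1 and 72.6 in forelimb, 62.8 in hindlimb replicate 2 and 71.4 in forebrain. Hindlimb replicate 1 had no peak there. The region chr9:91355499-91356182, 2.224 kb beyond the Zic1 end, had 54.2 in forelimb replicate 2, 21.6 in hindlimb replicate 2 and 88.4 in forebrain. The region chr9:91364650-91365455 inside Zic1 had 53.7 in forelimb replicate 2, 52.0 in hindlimb replicate 2 and 63.5 in forebrain.

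A region with the opposite pattern lay 176.8 kb beyond Zic4. At chr9:91565968-91566399, inside Gm29478, all 4 ectoderm libraries had a peak and forebrain had none, with the nearest forebrain peak 5886 bp away. Fold enrichments there were 5.93 and 6.87 in forelimb and 3.54 and 7.54 in hindlimb, and its −log10 q was 13.1, 17.8, 4.04 and 23.0 in the same order of libraries. The percentiles were 75.8 and 81.6 in forelimb and 51.1 and 79.7 in hindlimb. This was the highest ectoderm peak near the members in each of the 4 lists. Hindlimb replicate 1 fell below a −log10 q of 5 there. Without that library 2 regions had a peak in every remaining ectoderm library and none in forebrain.

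The second of these was chr9:91224753-91225373, 133.0 kb from Zic1 outside any annotated gene. Its percentiles were 30.0 and 18.9 in forelimb and 16.0 in hindlimb replicate 2, with −log10 q between 2.9 and 3.71, and the nearest forebrain peak was 2317 bp away. No other member region had a peak in 2 or more ectoderm libraries without one in forebrain. This gave 2 of 59 regions, against 10.3% of regions over all genes.

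No region near these genes met the rule for a single limb. Of the 59 regions, 0 were open in both libraries of the forelimb and neither of the hindlimb, against 1.98% over all genes, and 0 were the opposite, against 0.671%. Peaks in both forelimb libraries were found in 5 regions and in both hindlimb libraries in 3. Of 25 regions with any ectoderm peak, 8 had one in 2 or more libraries, so most regions with an ectoderm peak had it in 1 ectoderm library. The same held over all genes, where 135370 regions had any ectoderm peak. Of these, 74295 had it in 1 ectoderm library without forebrain, and 11377 in 1 ectoderm library with forebrain.

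Member summits were also placed within their own lists. Their median percentile was 48.9 and 26.0 in forelimb, 24.1 and 21.6 in hindlimb, with 55.1 in forebrain. With lists of equal length it was 27.5 and 46.3 in forelimb, 24.1 and 36 in hindlimb, with 32.3 in forebrain, so the order of the libraries depended on how long the lists were. The median fold of member summits was below that of its own list in each library. It was 3.59 and 3.08 in forelimb replicates 1 and 2, where the lists had 3.89 and 3.74. It was 2.67 in hindlimb replicate 1, whose list had 3.24, and 3.02 in hindlimb replicate 2, whose list had 3.82. The forebrain value was 3.4, and its list had 3.79.

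Sharing was also counted by distance from the gene body, so a region inside a long gene counts as within 10 kb however far it lies from a start. The shares of members and of all genes are therefore not matched for distance from a start. Within 10 kb of a member, 7 of 15 regions had peaks in both tissues, or 46.7%, against 23.2% of regions at that distance over all genes. These were 3 of 10 regions around Zic1 and Zic4 and 4 of 5 around Zic2 and Zic5. Beyond 100 kb, 0 of 30 regions had peaks in both, against 11.2% over all genes, while 16 were forebrain-only and 14 had ectoderm peaks only. All 30 belonged to Zic1 and Zic4, since the rule reaches that far in their locus alone, so distance and locus are mixed in the members as a whole. By summits, 17 of the 60 in forebrain lay inside a member and 12 more within 10 kb. In ectoderm, 3 of 12 and 4 of 16 lay inside in forelimb and 1 of 6 and 5 of 15 in hindlimb. No share over all genes stands beside these summit counts, and no difference between tissues is read from them.

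Sharing was counted by forebrain rank in the same way. Of forebrain regions near the members, 4 of 5 above percentile 80 also had an ectoderm peak, or 80%, against 80.4% over all genes. Between percentiles 60 and 80 the count was 2 of 12, or 16.7%, against 45.4%, and between 40 and 60 it was 1 of 9, against 29.1%. It was 0 of 8 between 20 and 40, against 19.4%, and 0 of 7 below 20, against 14.8%. Over all forebrain regions 17.1% near the members and 38.4% near all genes had an ectoderm peak. By locus, the counts were 3 of 36 around Zic1 and Zic4 and 4 of 5 around Zic2 and Zic5. The shared regions at forebrain percentiles 83.0, 91.7 and 95.1 lay at Zic2 and Zic5, so rank and locus are mixed in the members.

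**Figure D4:**
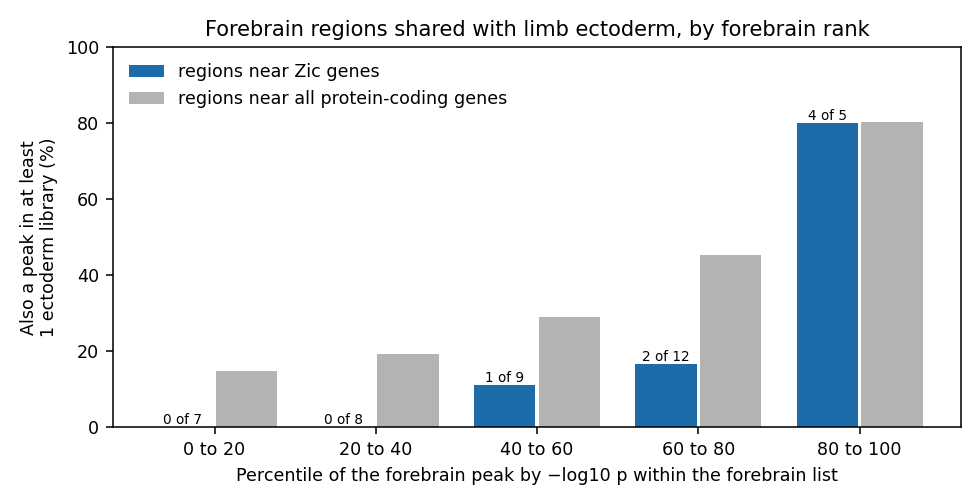
Share of regions with a forebrain peak that also have a peak in at least 1 ectoderm library (y axis, percent) by the percentile of the forebrain peak within the forebrain list (x axis), near Zic genes and near all protein-coding genes. Counts stand above the Zic bars. Between percentiles 60 and 80 the Zic share is 16.7% and the share over all genes 45.4%, and above 80 they are 80% and 80.4%. Rank and locus are mixed in the Zic bars.

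Related and functionally linked gene lists were described in the same way. The Zic share of 57.6% stood beside 48.3% (42.5 to 54.2) for 11 forebrain regulators, such as Sox2 and Pax6, and 35.0% (29.4 to 41.0) for the Gli and Glis genes, the nearest relatives of the Zic family. It was 33.8% (28.5 to 39.4) for 12 holoprosencephaly genes and 30.6% (25.8 to 35.7) for 16 genes of the dorsal midline and cortical hem. Over all genes it was 32.4%, and for 10 basal epidermis genes 22.1% (15.6 to 29.7). Among the marker lists, it was 45.8% (39.5 to 52.2) for forebrain, 40.6% (32.2 to 49.5) for melanocytes and neural crest, 40.2% (30.8 to 50.1) for endothelium and blood, 39.2% (30.6 to 48.3) for limb mesenchyme and 33.6% (25.4 to 42.6) for meninges and head mesenchyme. The Zic interval of 44.1 to 70.4 overlapped those of the forebrain regulators and of the first 4 of these marker lists, so it does not set the Zic genes apart from them. The Zic share rested mainly on 1 locus. It was 62.3% (47.9 to 75.2) of 53 regions around Zic1 and Zic4 and 16.7% (0.421 to 64.1) of 6 around Zic2 and Zic5. The overlap of intervals is thus mostly that of the Zic1 and Zic4 locus. These intervals treat regions as independent, also regions of the same locus, and cover counting error in these libraries only.

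**Figure D5:**
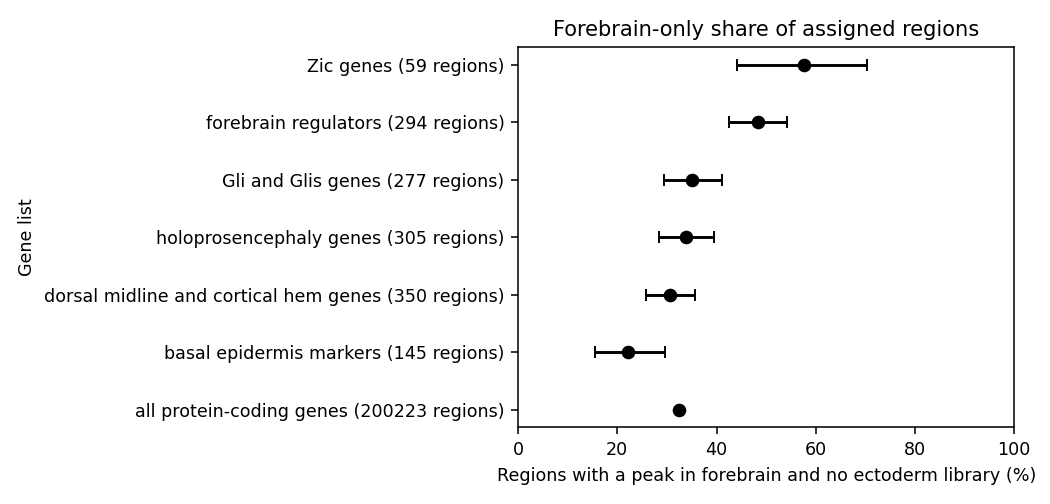
Share of assigned regions that are forebrain-only, with a forebrain peak and no ectoderm peak (x axis, percent) for the Zic genes and other gene lists (y axis). Points are shares and lines are exact Clopper-Pearson 95% intervals for counting error. The Zic share is 57.6% and the share over all protein-coding genes 32.4%. Of the Zic regions, 53 lie around Zic1 and Zic4, with a share of 62.3%, and 6 around Zic2 and Zic5, with a share of 16.7%.

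Within those lists, genes varied widely. Among Gli and Glis genes, Gli3, a hedgehog effector that acts mainly as a repressor, had 35 forebrain-only regions of 83, and Gli1, an activator and target of the pathway, had 1 of 6. Among forebrain regulators, the progenitor factor Sox2 had 37 of 72, while Otx1 and Emx1, both of the dorsal forebrain, had 3 of 10 and 3 of 7. Among holoprosencephaly genes, Gli2, the main hedgehog activator, had 24 of 71, while Foxh1, a Nodal pathway factor, had 0 of 1 and Fgf8, a forebrain patterning signal, had 0 of 3. Among midline and hem genes, the Wnt enhancer Rspo3 had 15 of 39, while Wnt2b had 0 of 3 and the roof plate ligand Gdf7 had 0 of 4. Ectoderm-only regions, with a peak in each of the 4 ectoderm libraries, numbered 5 of 71 at Gli2, 0 of 72 at Sox2 and 0 of 28 at Pax6. By list they were 7 of 277 for Gli and Glis genes and 2 of 294 for forebrain regulators, against 2.37% over all genes. Some of these genes had few regions and no test was made between genes, so these counts set no gene apart.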

How the data were processed

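Reads were handled with MACS2 2.1.1.20160309, Picard, bedtools, Bowtie2 2.3.5 and cutadapt 1.16 on mm10, per the submitters' processing notes. A shift of reads for transposase insertion is not given in the sources. Each library has its own list from the authors, deposited with an interval, a summit, a score that was not used, a fold enrichment (a ratio to local background) and −log10 of the p-value and q-value at the summit. The smallest deposited −log10 q was 1.30 to 1.31, a q threshold of 0.05. These values belong to their own list, so they describe, rank or filter peaks within it. Where values of several lists stand together they are given side by side, and no difference between tissues is read from them. A percentile is the rank of a summit by −log10 p within its list, and a region's value is that of its highest summit.

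Peaks outside the autosomes, X and Y were left out, and peaks of all libraries that overlapped by 1 bp were merged into regions, placed by their highest summit. Genes and promoter sequences came from RefSeq tables of GRCm38.p6. Python 3.11.15, pandas 2.3.3, numpy 2.4.6 and scipy 1.17.1 were used, and merging and assignment were tested on simulated data. The members and lists were chosen with earlier results of these data known. Replicates may be technical. Regions were named by rule: in each locus the 5 highest forebrain-only regions, those in all 4 ectoderm libraries or in 2 or more without forebrain, those of 1 limb and those at gene ends. The other regions with peaks in both tissues or inside Zic2, and Pax6 among the list genes with most and fewest forebrain-only regions, were named after their values were seen. Alternatives were a −log10 q of 5 or more, lists of equal length, each ectoderm library left out, a stricter overlap, 100 kb, no nearest-gene condition and 2.5 kb for gene ends.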

Additional observations from a re-analysis of the deposited data

Results flagged for a closer look

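Among 7 values compared over the 4 ectoderm libraries, 1 library stood far from the others in 1 of them. The median percentile of member summits was 48.9 in forelimb replicate 1, against 26.0 in forelimb replicate 2 and 24.1 and 21.6 in hindlimb replicates 1 and 2. This depended on the lists: with equal lengths the values were 27.5 in forelimb replicate 1 and 46.3, 24.1 and 36 in the other 3 in that order. When peaks were kept only from a −log10 q of 5 upward, they were 14.6 in forelimb replicate 1 and 34.2 in both forelimb replicate 2 and hindlimb replicate 2, with no member summit in hindlimb replicate 1. Chance marks about 1 in 20 such groups, and the cause was not tested.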

How the results depend on the processing

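No paired analysis was possible because peak counts carry no test and forebrain has 1 library. The forebrain-only share near the Zic genes exceeded that over all genes in each of the 8 alternatives that gave both. Where values moved they were as follows, and the cause was not tested. At a −log10 q of 5 or more, member summits numbered 7 and 4 in forelimb and 0 and 4 in hindlimb, the median percentile in forelimb replicate 1 was 14.6, no member region had a peak in all ectoderm libraries without forebrain (0) or in all libraries (0), and forelimb replicate 1 had 0 gene-end peaks. The forebrain-only share was then 75% for Zic, 46.6% for Gli and Glis, 44.8% for holoprosencephaly, 43.6% for midline and hem genes, 65.6% for forebrain regulators and 41.7% for all genes. With lists of equal length, member summits numbered 4 in forelimb replicate 2, 4 in hindlimb replicate 2 and 22 in forebrain, the median percentile in forelimb replicate 1 was 27.5, forebrain-only regions numbered 10, regions in all libraries 0, and gene-end peaks in forelimb replicate 1 numbered 0. The shares were 18.6%, 19.2%, 16.3%, 27.9% and 15% in the same order from Gli and Glis to all genes. Within 100 kb, member summits numbered 6 and 10 in forelimb, forebrain-only regions 18 and ectoderm-only regions 0, with a share of 32.1% over all genes. Without the nearest-gene condition, which lets in the regions of Clybl and Pcca, summits numbered 25 and 27 in forelimb, 16 and 27 in hindlimb, against 107 in forebrain. The median percentile in forelimb replicate 1 was then 30, and 64 regions were forebrain-only, 3 ectoderm-only and 1 hindlimb-only. Within 2.5 kb, gene-end peaks numbered 2 in forelimb replicate 1 and 2 in hindlimb replicate 1. Leaving out each ectoderm library in turn gave 1 to 2 ectoderm-only, 0 to 8 forelimb-only and 0 to 4 hindlimb-only regions, since a limb then rested on 1 library. The shares then ranged from 37.9% to 44.6% for Gli and Glis, 36.5% to 41.2% for holoprosencephaly, 34.4% to 37.6% for midline and hem genes, 53.5% to 54.9% for forebrain regulators and 36.2% to 38.1% for all genes. Depth is unknown, so a missing peak may reflect it.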
